A study of Mus musculus with 10 samples.

Results

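Claudins are the membrane proteins that form the strands of the tight junction, and 9 of them are described here, out of 18398 genes in the deposited table. They are the listed members Cldn1, Cldn2, Cldn3, Cldn4, Cldn7, Cldn8, Cldn12, Cldn15 and Cldn23, chosen by name from the family, and all 9 passed the filter on low values (a mean of at least 1 FPKM, fragments scaled to gene length and library size). Their RNA was measured in whole colon tissue of wild-type mice, in 5 libraries from a normal diet (CN-1 to CN-5) and 5 from a diet called pro-inflammatory (PI-1 to PI-5). The labels give no strain, age, sex, diet composition, diet length or colon segment, and do not say that each library came from a separate animal, so p-values measure the spread between these libraries, which may be technical. The question addressed by the comparison is which colon genes differ between the diets.

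Neighbouring epithelial cells are joined by tight junctions, and the claudins present there set which ions and how much water pass between the cells. Sealing claudins such as Cldn1, Cldn3, Cldn4 and Cldn8 tighten that route, while Cldn2 and Cldn15 line small pores, for cations and water in the case of Cldn2 and for cations in that of Cldn15. In the large intestine Cldn8 is known as a claudin of the distal part, where it keeps sodium taken up through the epithelial sodium channel from leaking back. Cldn7, Cldn12 and Cldn23 are set apart here because their effect depends on their partners or is less settled.

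The libraries held 15652783 to 18341956 reads on genes. Hoxb13, a posterior HOX gene whose RNA marks the distal end of the colon, separated them. It was at 211, 262, 218, 333 and 322 FPKM in CN-1 to CN-5 and at 312, 292 and 341 in PI-1, PI-3 and PI-4. In PI-2 it was at 0.417 FPKM (10 reads) and in PI-5 at 20.9 (455 reads). Hoxd13 and Hoxa13 stood the same way. Hoxd13 was at 0.0222 and 0.293 FPKM in PI-2 and PI-5 against 16.5 to 47.3 in the other 8 libraries. Hoxa13 was at 4.16 and 10.6 against 18.2 to 25.1. Not every posterior HOX gene did. Hoxa11 was highest in PI-2 and PI-5 (5.19 and 4.45 FPKM against 1.85 to 3.61). Hoxd10 (2.77 and 1.92 FPKM) lay within the range of the other 8 (1.81 to 6.39). Hoxa11 and Hoxd10 were named after their values were seen. Hoxb8, a HOX gene of more anterior gut, was at 12.0 and 6.83 FPKM in PI-2 and PI-5 and at 0.0962 to 0.325 in the other 8. Not every such gene was raised there. Hoxa3 was lowest in PI-2 and PI-5 (2.15 and 2.19 FPKM against 2.47 to 4.93). Hoxa5 was lowest in PI-2 and lay within the range of the other 8 in PI-5. Of 12 tested proximal and middle HOX genes, 8 had higher and 4 lower means of log2(FPKM + 1) on the pro-inflammatory diet. PI-2 and PI-5 are both on the pro-inflammatory diet, so results that rest on them are given with and without them.

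The levels of the 9 claudins differed widely, and FPKM, being scaled to gene length, allows them to be compared. Cldn7 was the most abundant (mean 364 FPKM over the 10 libraries), ahead of Cldn3 (273), and Cldn1 was the lowest (1.47). Between them lay Cldn2 (68.2), Cldn15 (63.1), Cldn8 (38.7), Cldn12 (22.6), Cldn23 (14.5) and Cldn4 (11.01). Cldn7 exceeded Cldn3, Cldn3 exceeded Cldn2 and Cldn4 exceeded Cldn1 in 10 of 10 libraries, and the ranges of these pairs did not overlap. The other neighbours in this order did overlap in range: Cldn2 was above Cldn15, and Cldn23 above Cldn4, in 6 of 10 libraries. Cldn15 was above Cldn8, Cldn8 above Cldn12 and Cldn12 above Cldn23 in 8 of 10. Of the summed FPKM of the 9 genes, Cldn7 made up 40.6% to 44.2% and Cldn3 29.9% to 33.8% in every library.

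None of the 9 claudins passed the test between the diets, which was limma on log2(FPKM + 1) over 12345 genes with Benjamini-Hochberg adjustment (0 of 9, against 0% of all genes tested). The 3 with an unadjusted p under 0.05 were Cldn8 and Cldn4, lower on the pro-inflammatory diet (2 of 9, against 9.25% of all genes), and Cldn2, higher on it (1 of 9, against 8.16%). Cldn8 was the single claudin whose 5 values on one diet all lay beyond the 5 on the other (1 of 9 lower, against 2.07% of all genes, and 0 of 9 higher, against 1.77%). The median log2 fold change over all genes was -0.01. In the plot of levels by diet, Cldn8 is the member whose diets are most clearly apart, while Cldn15, Cldn23 and Cldn12 are spread by PI-2 and PI-5.

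**Figure D1:**
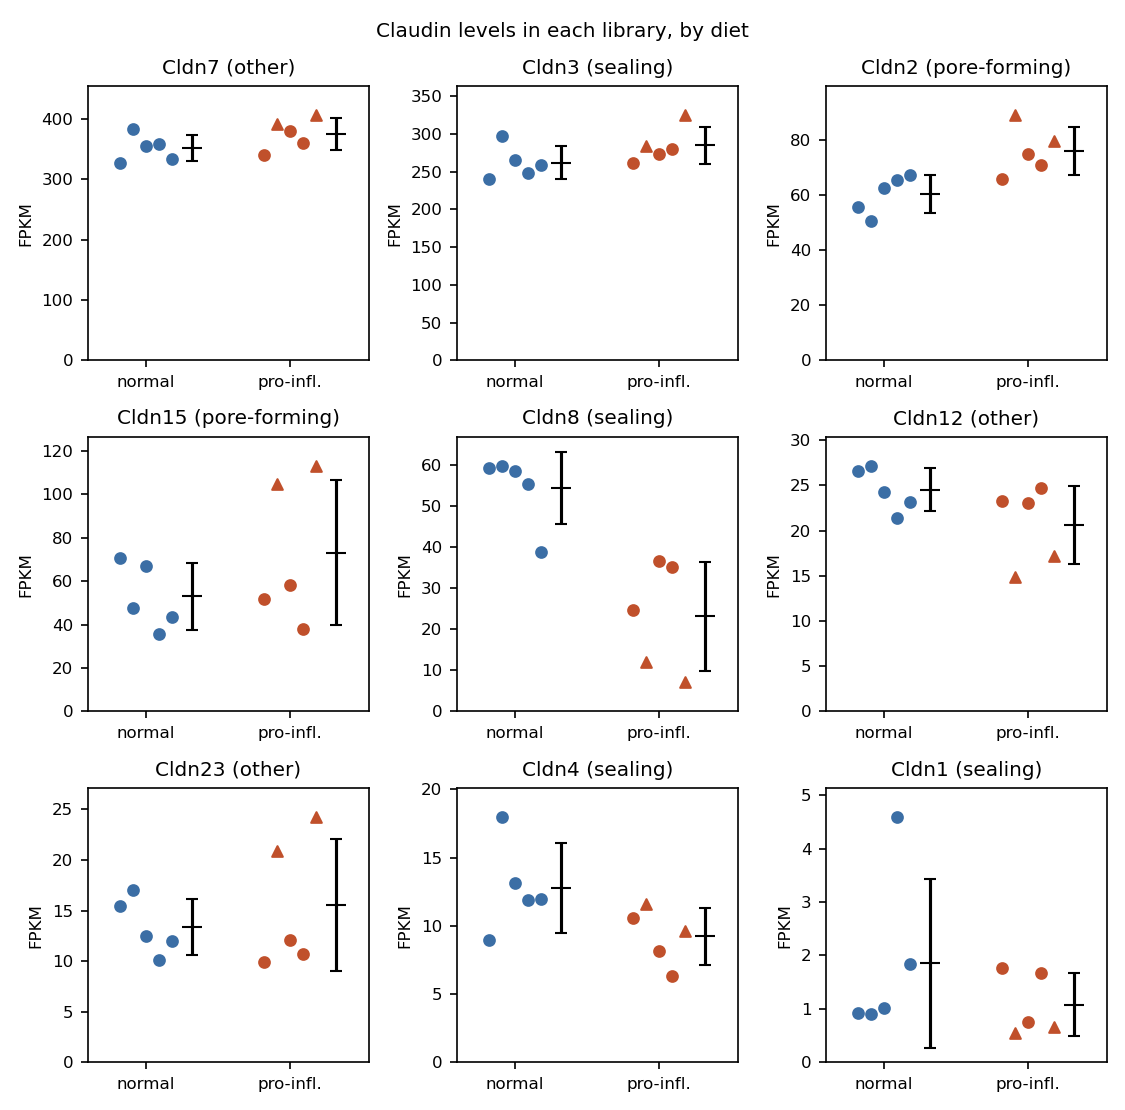
FPKM of each claudin (vertical axes from 0) in the 5 normal diet libraries (blue, replicates 1 to 5 from left to right) and the 5 pro-inflammatory diet libraries (orange), with triangles for PI-2 and PI-5 and black bars for mean ± SD. Cldn8 lies at 38.8 to 59.6 in the blue and 7.14 to 36.5 in the orange libraries, while PI-2 and PI-5 are the highest for Cldn15 and Cldn23 and the lowest for Cldn12.

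Among the sealing members, Cldn8 (chromosome 16, 88560828 to 88563183, minus strand, 1 exon, GRCm38) had the largest difference of the 9. It was at 59.2, 59.6, 58.6, 55.3 and 38.8 FPKM in CN-1 to CN-5 and at 24.8, 12.1, 36.5, 35.2 and 7.14 in PI-1 to PI-5. Every pro-inflammatory diet library was below every normal diet library, with PI-2 and PI-5 the lowest of all and CN-5 the closest to the other diet. The means were 54.3 ± 8.81 and 23.2 ± 13.3 FPKM (SD, n = 5 each), a ratio of 2.34 (log2 fold change -1.40, SE 0.39, 95% confidence interval -2.28 to -0.53, limma adjusted p = 0.173). Without PI-2 and PI-5 the remaining 3 libraries of that diet, at 32.2 ± 6.45 FPKM, still lay below all 5 on the normal diet. The log2 fold change was then -0.74 (SE 0.17, interval -1.12 to -0.36), and the limma adjusted p was 0.23. In that comparison 4.37% of 12259 genes were lower without overlap.

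Cldn4 (chromosome 5, 134945119 to 134946934, minus strand), which seals and restricts sodium passage, was low in these colons. Its values were 8.96, 18.0, 13.1, 11.9 and 12.0 FPKM in CN-1 to CN-5 and 10.6, 11.6, 8.14, 6.30 and 9.61 in PI-1 to PI-5. The diets overlapped through CN-1, which lay below PI-1, PI-2 and PI-5, and CN-2 was the highest. The log2 fold change was -0.42 (SE 0.18, limma adjusted p = 0.272), and -0.56 (SE 0.20) without PI-2 and PI-5, so the difference in Cldn4 was as large without the Hoxb13-poor libraries. Cldn3 (chromosome 5, 134986214 to 134987472, plus strand) lies 39279 bases from Cldn4 in the reference and is among the most abundant sealing claudins of the gut. It was at 241, 297, 266, 248 and 259 FPKM on the normal diet and at 261, 284, 273, 279 and 324 on the pro-inflammatory diet. The ranges overlapped and the log2 fold change was 0.12 (SE 0.08, 95% confidence interval -0.05 to 0.29), opposite in sign to that of its neighbour. Cldn1 (chromosome 16, 26356642 to 26371841, minus strand), a broadly expressed sealing claudin, rested on 31 to 262 reads per library. It was at 0.919, 0.905, 1.02, 4.58 and 1.84 FPKM in CN-1 to CN-5 and at 1.77, 0.546, 0.756, 1.68 and 0.659 in PI-1 to PI-5. CN-4 was far above the rest, at 4.58 FPKM with an exact Poisson interval of 4.04 to 5.17, which covers counting error alone, and the log2 fold change of -0.36 (SE 0.31) was -0.08 without it.

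The pore-forming pair is shown with the bases upstream of their starts, because both were highest in PI-2 and PI-5, where Hoxb13 was lowest. That was not particular to the pair. Cldn7 (392 and 406 FPKM against at most 383) and Cldn23 (20.9 and 24.2 against at most 17.0) were highest there too. Among the other 8 libraries Cldn2 did not fall with rising Hoxb13 (Pearson's r = 0.60, adjusted exact permutation p = 0.161). Posterior HOX and CDX factors bind related AT-rich letters, and whether they act on either gene was not tested. Each run holds the 250 bases before the start that RefSeq GRCm38.p6 gives, on the gene's strand, 5′ to 3′, and capitals mark TTTAT, the core shared by CDX and posterior HOX sites, on either strand (ATAAA where it lies on the opposite one). Cldn2 is at chrX:139800558-139800807 (plus strand) and Cldn15 at chr5:136967619-136967868 (plus strand).
Cldn2: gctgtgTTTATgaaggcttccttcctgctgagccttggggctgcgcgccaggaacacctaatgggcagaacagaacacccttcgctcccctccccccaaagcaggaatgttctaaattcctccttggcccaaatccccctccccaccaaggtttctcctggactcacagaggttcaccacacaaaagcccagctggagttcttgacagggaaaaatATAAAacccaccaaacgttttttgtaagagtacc
Cldn15: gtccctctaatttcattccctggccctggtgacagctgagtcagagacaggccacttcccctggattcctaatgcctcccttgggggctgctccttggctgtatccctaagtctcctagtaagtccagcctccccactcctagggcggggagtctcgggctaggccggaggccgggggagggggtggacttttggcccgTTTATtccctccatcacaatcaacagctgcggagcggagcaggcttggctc
The Cldn2 window held TTTAT at 2 places, beginning 244 and 34 bases before the start, the nearer one on the opposite strand and within the letters TATAAA. Cldn15 held it once, beginning 51 bases before the start. Of all 32851 promoter windows of this length 37.3% held it, and among the members the table has windows for 7 genes, of which Cldn2 and Cldn15 were the 2 that did. Counted by window, as the share over all promoters is, the members held it in 2 of 10. Neither Cldn7 window held it, and Cldn23 had no window. A match is a description of the letters, not of binding.

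Cldn2 (chromosome X, 139800828 to 139811386, plus strand), the cation and water pore, was at 55.8, 50.5, 62.6, 65.4 and 67.2 FPKM in CN-1 to CN-5. On the pro-inflammatory diet it was at 66.0, 88.9, 74.8, 70.8 and 79.7 FPKM in PI-1 to PI-5. The diets met at PI-1, which lay below CN-5, and otherwise every pro-inflammatory diet library was above every normal diet library. Means were 60.3 ± 6.97 and 76.0 ± 8.78 FPKM (SD, n = 5 each), a ratio of 1.26 (log2 fold change 0.33, SE 0.10, interval 0.11 to 0.55, limma adjusted p = 0.18). Without PI-2 and PI-5, the 2 highest, it was 0.23 (SE 0.10, adjusted p = 0.31).

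Cldn15 (chromosome 5, 136966616 to 136975858, plus strand), the cation pore that supplies luminal sodium for uptake in the small intestine, was also spread widely. It was at 70.9, 47.7, 67.0, 35.8 and 43.6 FPKM in CN-1 to CN-5 and at 52.0, 105, 58.2, 38.0 and 113 in PI-1 to PI-5. PI-2 and PI-5 stood above all others, and the other 3 libraries of that diet lay within the normal diet range. Its log2 fold change was 0.38 (SE 0.31, interval -0.30 to 1.07, limma adjusted p = 0.512) over all libraries and turned to -0.07 (SE 0.23) without these 2. Whether the diet difference of Cldn2 differed from that of Cldn15 was not tested.

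**Figure D2:**
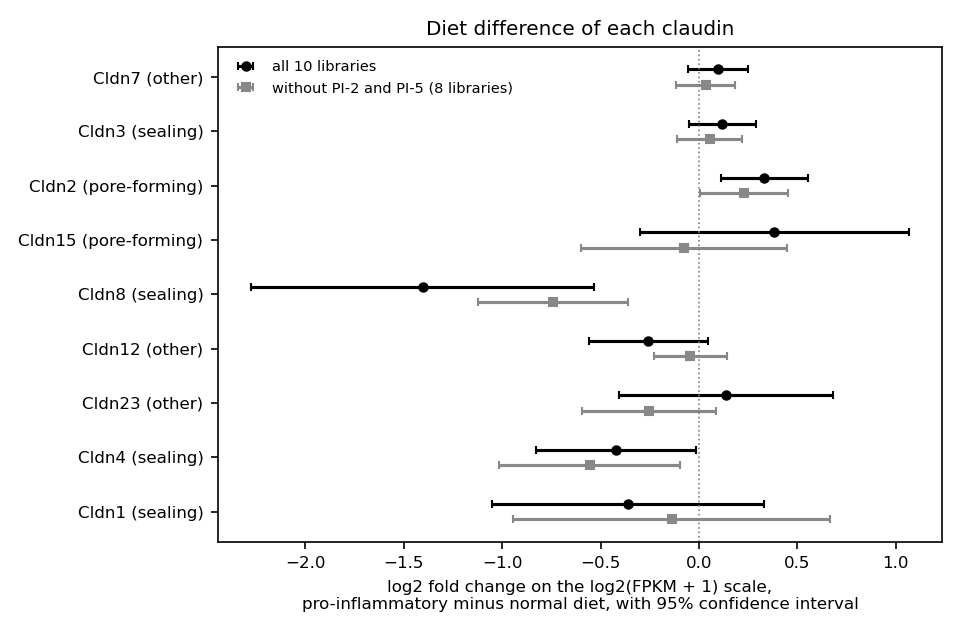
Log2 fold change of each claudin (pro-inflammatory minus normal diet, on the log2(FPKM + 1) scale) with its 95% confidence interval from limma, over all 10 libraries (black circles) and without PI-2 and PI-5 (grey squares). The intervals of Cldn8, Cldn4 and Cldn2 lie off 0 in both, before adjustment over all genes, while the points of Cldn15 and Cldn23 cross 0.

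Of the other 3 members, Cldn7 (chromosome 11, 69964779 to 69967885, plus strand), found along the lateral membrane of gut epithelium, was steady at 328 to 383 FPKM in CN-1 to CN-5 and 340 to 406 in PI-1 to PI-5. Its coefficients of variation were 6.24% and 7.00%, the smallest of the 9 genes within each diet, and the log2 fold change was 0.09 (SE 0.07, interval -0.06 to 0.25). Cldn12 (chromosome 5, 5489537 to 5514958, minus strand), a claudin linked to calcium passage, was at 26.6, 27.1, 24.3, 21.4 and 23.2 FPKM in CN-1 to CN-5. In PI-1 to PI-5 it was at 23.3, 14.9, 23.1, 24.7 and 17.2 FPKM, with PI-2 and PI-5 below all others. Its log2 fold change was -0.26 (SE 0.14, limma adjusted p = 0.342), and -0.04 (SE 0.08) without them. Cldn23 (chromosome 8, 35824712 to 35826559, minus strand), a claudin of differentiated surface cells, was at 15.4, 17.0, 12.4, 10.1 and 12.0 FPKM on the normal diet. On the pro-inflammatory diet it was at 9.96, 20.9, 12.1, 10.7 and 24.2 FPKM, again with PI-2 and PI-5 at the top. The log2 fold change was 0.14 (SE 0.24, adjusted p = 0.777) and turned to -0.25 (SE 0.15, adjusted p = 0.424) without these 2 libraries.

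Sealing was set against pore formation within each library as the mean log2(FPKM + 1) of Cldn2 and Cldn15 minus that of Cldn1, Cldn3, Cldn4 and Cldn8, a description with no test. This balance was 1.48, 0.82, 1.34, 0.64 and 1.15 in CN-1 to CN-5 and 1.47, 2.57, 1.73, 1.33 and 2.71 in PI-1 to PI-5. PI-2 and PI-5 were the most pore-weighted libraries, PI-3 came next, and PI-1 and PI-4 lay within the normal diet range. The means were 1.09 ± 0.35 and 1.96 ± 0.64 (SD, n = 5 each), a difference of 0.87, and 0.42 without PI-2 and PI-5. Taken instead as the log2 ratio of summed FPKM, where the abundant Cldn3 makes up most of the sealing sum, the difference was 0.42, and 0.16 without them. With Cldn1, the member with the fewest reads, left out of the sealing mean, the 2 diets no longer overlapped, at -0.48 to 0.28 in CN-1 to CN-5 and 0.33 to 1.66 in PI-1 to PI-5 (difference 0.93, and 0.49 without PI-2 and PI-5). That sealing mean is of Cldn3, Cldn4 and Cldn8, so Cldn8, which did not overlap by itself, weighs more in it. With Cldn7 and Cldn23 counted as sealing the diets overlapped, at 0.30 to 0.92 and 0.78 to 1.78 (difference 0.66, and 0.34 without PI-2 and PI-5). Cldn8 made up 4.91% to 7.34% of the summed FPKM of the 9 genes on the normal diet and 3.14%, 1.30%, 4.21%, 4.26% and 0.73% in PI-1 to PI-5. Cldn15 made up 11.2% and 11.5% in PI-2 and PI-5 and 4.42% to 8.80% elsewhere.

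**Figure D3:**
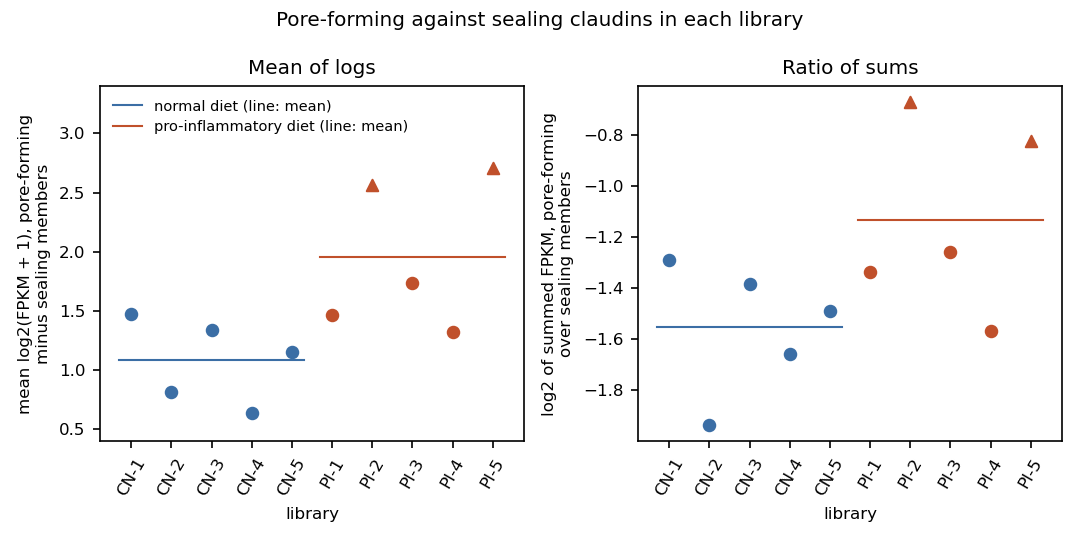
Pore-forming against sealing claudins in each library (horizontal axes), as a difference of mean log2(FPKM + 1) (left) and as the log2 ratio of summed FPKM (right), with a line at the mean of each diet and triangles for PI-2 and PI-5. On the left PI-2 and PI-5 are at 2.57 and 2.71 and the other 8 libraries between 0.64 and 1.73.

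Hoxb13 was then set beside each claudin in every library. PI-2 and PI-5 were parted from the other 8 libraries, and from each other, by gaps of over 40% of the range of log2(Hoxb13 + 1), so no correlation was taken over all 10. Within the 8 libraries at 211 to 341 FPKM of Hoxb13, Cldn15 was lower where Hoxb13 was higher (Pearson's r = -0.88, two-sided exact permutation p = 0.00521, adjusted p = 0.0469 over the 9 claudins; Spearman's rho = -0.90, exact p = 0.00456, adjusted p = 0.0411). Without CN-1 and CN-3, the 2 libraries farthest from the Hoxb13 median, r was -0.64 over 6 libraries (exact permutation p = 0.171) and rho was -0.77. Passing the threshold therefore rests on CN-1 and CN-3. Cldn23 had r = -0.69 (exact permutation p = 0.0572, adjusted p = 0.161; rho = -0.76, exact p = 0.0368, adjusted p = 0.165). Without those 2 libraries its r was -0.86, while its rho was -0.60. The other 7 claudins had r from -0.63 to 0.63 and adjusted exact permutation p values from 0.161 to 0.717. Among them was Cldn8 (r = -0.62, rho = -0.64), which was at its highest, 58.6 to 59.6 FPKM, in the 3 libraries with the least Hoxb13 of these 8. These 3 are all on the normal diet, where Cldn8 was higher, so diet and Hoxb13 cannot be told apart in this r. In PI-2 and PI-5, with less Hoxb13 still and on the pro-inflammatory diet, Cldn8 was at its lowest (12.1 and 7.14 FPKM). It was at 24.8 to 36.5 FPKM in PI-1, PI-3 and PI-4 of the same diet. As the 2 diets are mixed across these sets, no direction of Cldn8 with Hoxb13 is read from them. The 8 libraries hold 5 of one diet and 3 of the other, fewer than the 6 set here as the least for a correlation, so within a diet only the order is given. From the least to the most Hoxb13, Cldn15 was at 70.9, 67.0, 47.7, 43.6 and 35.8 FPKM in CN-1, CN-3, CN-2, CN-5 and CN-4 and at 58.2, 52.0 and 38.0 in PI-3, PI-1 and PI-4, the reverse order of Hoxb13 within each diet. Cldn8 in the same order was at 59.2, 58.6, 59.6, 38.8 and 55.3 FPKM and at 36.5, 24.8 and 35.2, with no steady order. With Hoxd13 in place of Hoxb13, Cldn15 had r = -0.84 (adjusted exact permutation p = 0.0855). With Hoxa13, at 18.2 to 25.1 FPKM among these 8, it had r = 0.06, so the relation was not seen with every posterior HOX gene.

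**Figure D4:**
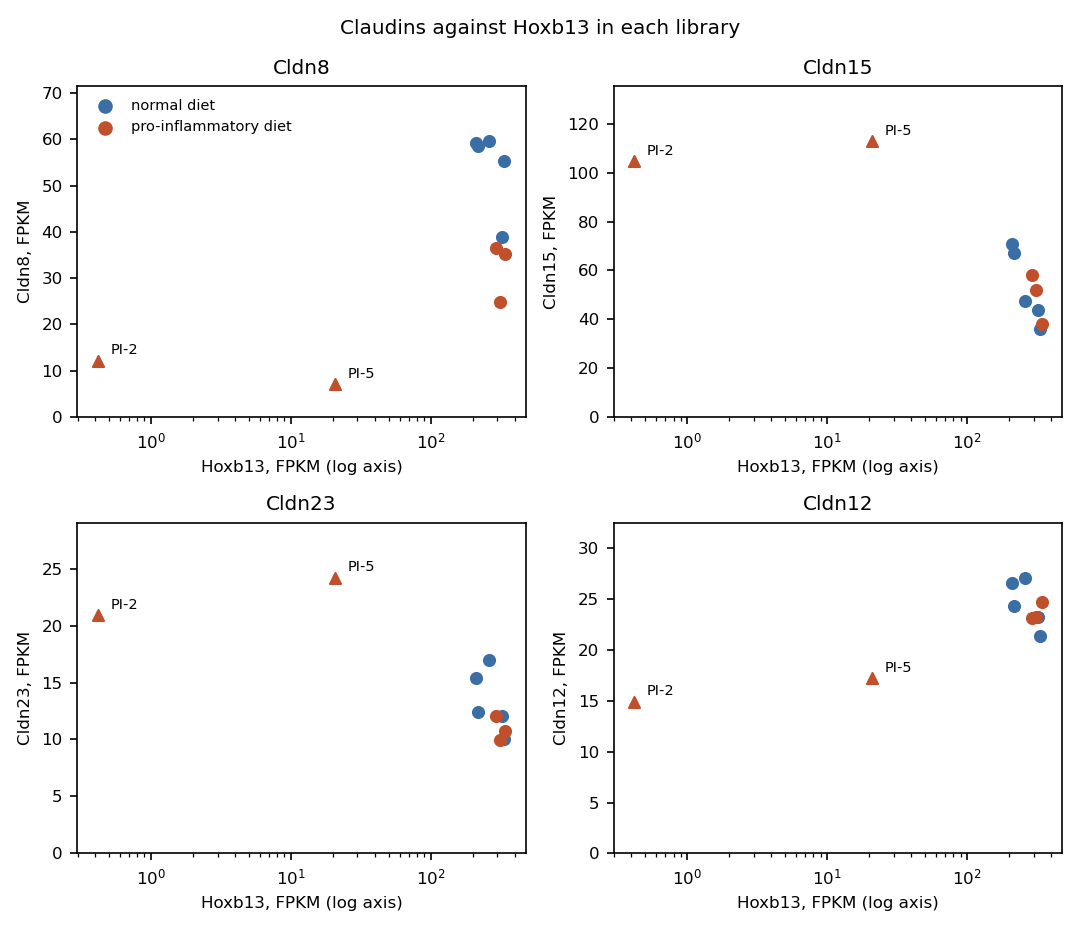
FPKM of Cldn8, Cldn15, Cldn23 and Cldn12 (vertical axes from 0) against FPKM of Hoxb13 (horizontal, log axis) in each library, blue for the normal and orange for the pro-inflammatory diet. PI-2 and PI-5 lie far to the left at 0.417 and 20.9, with low Cldn8 and Cldn12 and high Cldn15 and Cldn23, while the other 8 libraries lie at 211 to 341.

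Fitted with log2(Hoxb13 + 1) as a covariate, the log2 fold change of Cldn8 was -0.98 (SE 0.31, limma adjusted p = 0.201) and that of Cldn2 was 0.25 (SE 0.09, adjusted p = 0.242). That of Cldn4 was -0.54 (SE 0.19, adjusted p = 0.223), while that of Cldn15 was 0.03 (SE 0.23). PI-2 and PI-5, both of one diet, lie far from the other libraries in Hoxb13 and largely set the slope of this fit. It therefore cannot part diet from Hoxb13, and its values are a description. In the 8 libraries without PI-2 and PI-5, this covariate gave -0.62 (SE 0.18, limma adjusted p = 0.486) for Cldn8, -0.58 (SE 0.24, adjusted p = 0.567) for Cldn4 and 0.17 (SE 0.11, adjusted p = 0.677) for Cldn2. For Cldn15 it gave 0.27 (SE 0.10, interval 0.03 to 0.51, adjusted p = 0.533), positive where the fit on these libraries without the covariate gave -0.07.

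Tissue make-up was read from other genes of the same libraries, and in whole tissue fewer cells of a type and less RNA per cell cannot be told apart. Epcam, the pan-epithelial adhesion molecule, was at 747 ± 65.5 FPKM in CN-1 to CN-5 and 742 ± 53.4 in PI-1 to PI-5 (SD, n = 5 in each group). Relative to Epcam in the same library, Cldn8 was at 8.56%, 6.97%, 7.79%, 7.89% and 5.28% in CN-1 to CN-5 and at 3.44%, 1.83%, 4.80%, 4.62% and 0.89% in PI-1 to PI-5, again without overlap (1 of 9 lower, against 0.826% of all genes on this measure; log2 fold change -1.40, SE 0.37, limma adjusted p = 0.58). Cldn3 on that measure was at 34.7% to 35.3% in CN-1 to CN-5 and 35.8% to 42.9% in PI-1 to PI-5, also without overlap (1 of 9 higher, against 0.365%; log2 fold change 0.13, SE 0.08, adjusted p = 0.627). The highest were PI-2 and PI-5, at 42.9% and 40.3%. PI-1, PI-3 and PI-4 were at 36.4%, 35.8% and 36.6%, close to CN-3 at 35.3%. Of 10 epithelial markers 7 had higher means on the pro-inflammatory diet, with a median log2 fold change of 0.20 (0.09 without PI-2 and PI-5), and list scores (mean log2(FPKM + 1)) of 8.76 to 9.06 in CN-1 to CN-5 and 8.88 to 9.26 in PI-1 to PI-5. All 8 smooth muscle markers had lower means on that diet (median log2 fold change -0.33 with and without those libraries, scores 8.03 to 8.63 against 7.92 to 8.30), and all 8 immune markers higher ones (median 0.35, and 0.14 without them, scores 2.26 to 2.76 against 2.37 to 3.47, the highest in PI-2). None of these markers passed the test. Their part in the claudin differences was not tested, beyond a covariate of epithelial minus smooth muscle score, with which Cldn8 had a log2 fold change of -1.44 (SE 0.57, adjusted p = 0.466), Cldn4 -0.78 (SE 0.20, adjusted p = 0.356) and Cldn2 0.32 (SE 0.14, adjusted p = 0.524). Krt20, a keratin of mature surface cells, was at 644 and 680 FPKM in PI-2 and PI-5 against 196 to 278 in the other 8 libraries, the libraries that were also highest for Cldn23 and Cldn15. The other surface colonocyte markers did not all stand the same way. Car1, Guca2a and Ceacam1 were likewise highest in PI-2 and PI-5, while Aqp8 (47.7 and 111 FPKM against 170 to 292), Slc26a3 (59.5 and 146 against 204 to 510) and Car4 (295 and 426 against 434 to 826) were lowest there. Guca2a, Ceacam1, Slc26a3 and Car4 were named after their values were seen.

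Of the 16 other genes with claudin names in the table, 3 passed the filter on low values and none of them the test. Cldn14, a cation-restricting claudin, was at 0.494 and 0.575 FPKM (17 and 18 reads) in PI-2 and PI-5 and at 1.82 to 4.39 (61 to 153 reads) in the other 8 libraries, so that, as for Cldn12, these were the lowest. Cldn5, the claudin of blood vessel walls, was at 4.89 to 5.88 FPKM in CN-1 to CN-5 and 3.68 to 6.77 in PI-1 to PI-5, and Cldnd1, a claudin-domain protein, at 20.1 to 26.9 and 20.0 to 22.3. Of 23 tested scaffold and membrane partners of claudins, 21 had lower and 2 higher means on the pro-inflammatory diet and 0 passed (median log2 fold change -0.09, against -0.01 over all genes). The scaffold Mpdz was at 3.52 ± 0.371 FPKM on the normal diet and 2.69 ± 0.393 on the other (SD, n = 5 each), a log2 fold change of -0.30 (SE 0.09, limma adjusted p = 0.184) that was -0.35 without PI-2 and PI-5. Ocln (occludin) was at 22.4 and 24.9 FPKM in PI-2 and PI-5 and at 33.0 to 39.4 in the other 8 libraries, and Tjp1 (ZO-1) at 20.3 and 22.9 against 24.97 to 31.1.

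Of 23 tested genes described as acting on claudins, 12 had higher and 11 lower means and 0 passed (median log2 fold change 0.02). Egfr, the epidermal growth factor receptor, was at 7.81 ± 0.79 FPKM on the normal diet and 5.92 ± 0.674 on the other (SD, n = 5 each), with a log2 fold change of -0.35 (SE 0.08, limma adjusted p = 0.166), and -0.43 (SE 0.08) without PI-2 and PI-5. Il13ra1, part of the receptor for interleukin-13, which is known to raise Cldn2, was at 45.7 ± 5.36 and 37.2 ± 4.93 FPKM on these diets (log2 fold change -0.29, and -0.18 without PI-2 and PI-5), and Il22ra1 at 19.1 ± 0.973 and 16.4 ± 2.15 (-0.21, and -0.08 without them). Cdx2, the intestinal homeobox factor, was chosen after its values were seen. It was at 48.6, 35.6, 53.3, 14.8 and 18.5 FPKM in CN-1 to CN-5 and at 16.5, 123, 33.2, 12.7 and 118 in PI-1 to PI-5. The 2 libraries highest for Cdx2 were also highest for Cldn15, and CN-1 and CN-3 came next for both. Of 12 genes of aldosterone-sensitive sodium absorption, the process Cldn8 is linked to, 8 had higher and 4 lower means of log2(FPKM + 1). Of these genes 0 passed, and the median log2 fold change was 0.03, and 0.34 without PI-2 and PI-5. The channel subunit Scnn1g, also chosen after its values were seen, was at 0.0561 and 0.0411 FPKM in PI-2 and PI-5 and at 1.19 to 10.3 in the other 8 libraries. The subunit Scnn1a, likewise chosen, was also lowest there (16.4 and 24.6 FPKM against 33.5 to 49.1). The subunit Scnn1b was not (4.02 and 4.96 FPKM against 3.09 to 7.32). In PI-1, PI-3 and PI-4, where Cldn8 was below every normal diet library, Scnn1g was at 3.69, 4.18 and 10.3 FPKM against 1.19 to 6.97 on the normal diet.

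The genes most like a claudin in pattern were taken as those with the highest Pearson's r of log2(FPKM + 1) over the 10 libraries among the tested genes, passing over those named Gm, Rik or LOC, as a description. For Cldn8 they were Fat1 (r = 0.974), Otud6b (0.968) and Chml (0.958). The large cadherin Fat1 was at 30.7 to 34.7 FPKM on the normal diet and at 25.2, 19.9, 27.8, 28.5 and 20.0 in PI-1 to PI-5. Over the 8 libraries without PI-2 and PI-5, r was 0.947 for Fat1, 0.903 for Otud6b and 0.746 for Chml. For Cldn15 they were Hsd17b13 (0.986), B4galnt1 (0.981) and Srgap3 (0.978), with B4galnt1, a ganglioside-synthesizing enzyme, at 72.9 and 57.0 FPKM in PI-2 and PI-5 and 6.29 to 24.97 in the other 8. For Cldn2 they were Tbrg4 (0.972), Lrrc75a (0.965) and Ccar2 (0.963), and for Cldn4 Col20a1 (0.946), Itprip (0.933) and Stk25 (0.915). They lead a ranking over all tested genes in only 10 libraries.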

How the data were processed

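The deposited table gives 1 FPKM value per gene and library, made by the authors. Cufflinks, StringTie, HTSeq, DESeq, HISAT2, Bowtie2 and Trimmomatic, and the build mm10, are listed by the submitters' processing notes without roles. Whether counting used strand was not stated there. Per the labels' protocols, stranded mRNA libraries were sequenced as paired ends. Values were whole multiples of 1 read, within 0.001 read, for 18398 of 18398 genes, which gave the reads quoted. Genes with a mean of at least 1 FPKM (12345) were tested on log2(FPKM + 1), which understates changes of low genes, with limma 3.58.1 (R 4.3.3, eBayes with trend, Benjamini-Hochberg at 0.05). The test was checked on simulated data. Correlations used exact permutation of pairings. Coordinates are from GENCODE M21 (GRCm38, the assembly of mm10), 1-based, and promoters from RefSeq GRCm38.p6. Members, lists and the settings leaving out libraries were chosen with earlier results of these data known. All 9 members, other claudins above the filter, the 3 genes of smallest p in a list and the 3 nearest in pattern could be named. Alternatives are in the closing section. Figures used matplotlib 3.10.9.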

Additional observations from a re-analysis of the deposited data

Results flagged for a closer look

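Of 22 sets of 5 libraries examined (the 9 claudins, Hoxb13 and the balance, in each diet), 2 held a library far from the other 4, where chance alone gives about 1 in 20. Cldn1 was at 4.58 FPKM in CN-4, against 0.905 to 1.84 in the other normal diet libraries. Cldn8 was at 38.8 FPKM in CN-5, against 55.3 to 59.6 in the other 4. Without CN-5 the log2 fold change of Cldn8 was -1.52 (SE 0.43), against -1.40 with it.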

How the results depend on the processing

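No claudin and no other gene passed the adjusted threshold in any setting run, among them pseudocounts of 0.1 and 0.5, other filters, scalings, variance models and weights, each library left out in turn, and limma voom on the recovered reads (chosen after seeing the data). Nor did a claudin pass at an adjusted p under 0.1, while 3 had an unadjusted p under 0.05. Cldn8 kept its sign in all 27 alternatives (log2 fold change -1.62 to -0.62, adjusted p from 0.103 to 0.876), as did Cldn4 (-0.78 to -0.30), Cldn2 (0.17 to 0.38), Cldn3 (0.01 to 0.16) and Cldn1 (26 alternatives). The difference of Cldn23 turned with array weights (-0.122), the tissue covariate (-0.0507), the Hoxb13 covariate (-0.146, or -0.117 also without PI-2 and PI-5), without PI-2 and PI-5 (-0.255), and ran from -0.0346 (without PI-5) to 0.27 with single libraries left out. The difference of Cldn15 turned with array weights (-0.0401) and without PI-2 and PI-5 (-0.0749), that of Cldn7 with the tissue covariate (-0.036) and that of Cldn12 with the Hoxb13 covariate without PI-2 and PI-5 (0.0244). The cause was not tested. Claudins without overlap numbered 1 to 2 with single libraries left out (Cldn4 joined without CN-1, Cldn2 without CN-5 or PI-1), where 4.32% to 11.1% of all genes did not overlap in either direction, against 3.83% with all libraries. They numbered 2 relative to Epcam (1.19% of all genes) and 4 without CN-1, CN-2 and CN-3 (10.6%), which leaves 2 normal diet libraries. The balance difference of 0.87 was 0.42 to 1.06 over its alternatives. With Hoxa13 in place of Hoxb13, r was 0.0638 for Cldn15, -0.54 for Cldn3 and -0.57 for Cldn7, and with Hoxd13 it was -0.13 for Cldn7. Same-numbered libraries did not deviate together (r from -0.26 to 0.06), and with the number as a replicate block Cldn8 had a log2 fold change of -1.40 (SE 0.29, limma adjusted p = 0.293) and 0 genes were called.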
